A study of Mus musculus with 22 samples.

Results

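DNA methylation was examined at 9 genes that pattern the ventral neural tube, namely Shh, Foxa1, Foxa2, Nkx2-1, Nkx2-2, Nkx6-1, Nkx6-2, Olig2 and Gsx2, out of 20558 protein-coding genes of the mouse autosomes. The genes were chosen for this known role, with earlier results of these data known. Each was taken with a window from 5 kb upstream of the RefSeq gene to 1 kb past its end in GRCm38. The values came from rRRBS, in which DNA is cut with MspI at CCGG sites, treated with bisulfite and sequenced, so that each CpG near a cut has a count of methylated and unmethylated reads. The 22 libraries held the forebrain DNA of 1 embryo each, 6 Control and 16 EtOH-exposed, all wild-type C57BL/6 at E10.5. At E2.5 the dams had been injected under the skin 2 times, 2 h apart, with saline for the Control embryos or with 2.5 g/kg of ethanol for the EtOH-exposed ones. Only embryos without visible defects were sampled. By the study's methods the Control embryos came from 3 litters and the EtOH-exposed embryos from 6, and a forebrain holds many cell types, so a level is an average over cells. The windows hold 3952 CpGs in the reference, and 1144 of them passed a minimum of 10 reads per strand in 3 or more Control samples.

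Sonic hedgehog, encoded by Shh, is secreted by the notochord and the floor plate and sets the fates of neural progenitors by its concentration. Foxa1 and Foxa2 encode forkhead factors, of which Foxa2 marks and specifies the floor plate. Nkx2-1, Nkx2-2, Nkx6-1, Nkx6-2 and Olig2 encode transcription factors that respond to this signal and divide the ventral progenitors into domains, with Nkx2-1 marking the ventral forebrain and Olig2 the progenitors of motor neurons and oligodendrocytes. Gsx2 encodes a homeodomain factor of the lateral ganglionic eminence. Genes of this kind usually lie in broad CpG-rich stretches, which are known to stay free of DNA methylation also in cells where the gene is silent.

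The libraries differed in ways that touch every low value given here. Summed coverage ran from 68126469 to 132488556 calls among Control and from 89179413 to 216223892 among EtOH-exposed libraries. Over 39343 tiles of the genome that were almost unmethylated, each library had its own level, from 0.672 to 1.52% in Control samples, where Control 1 and Control 2 were the highest, and from 0.260 to 2.54% in EtOH-exposed samples. The libraries EtOH-exposed 4, 5 and 6 stood apart with 2.41 to 2.54% there, and with 45.4 to 46.7% over 2839 tiles of intermediate methylation, against 58.9 to 60.8% in the Control samples. At those tiles EtOH-exposed 14, 2, 9, 8 and 11 were also low, at 48.9, 50.9, 53.3, 53.5 and 56.0%. EtOH-exposed 13, 3, 16 and 1 lay closer to but still below all Control samples, at 57.8, 58.0, 58.3 and 58.6%. The comparisons at DMRs and at borders are also given without EtOH-exposed 4, 5 and 6, and these other libraries remain in them.

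In Control forebrains, nearly all measured CpGs of the windows had a low level, although the measured CpGs do not reach the ends of most windows. Of the 1144 CpGs, 1121 had a mean level under 5%, 21 lay between 5 and 20%, 1 between 20 and 80% and 1 over 80%. The share under 20% was 99.8%, against 59.0% of all autosomal CpGs measured in the same way. No CpG between the start and the end of a gene reached 20%, for any of the 9 genes and over 978 CpGs. This held for the 478 CpGs in coding exons, whose highest level was 6.84%, for the 252 in introns, where it was 10.99%, and for the 163 in untranslated or non-coding exons, where it was 8.07%.

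An unmethylated domain was taken from the measured CpG nearest the transcription start site outward, until 2 measured CpGs in a row reached 20% in the Control mean. The domain filled the measured part of the window in 8 of 9 genes, and Nkx2-2 alone had a border inside its window. That border rested on CpGs with few Control samples and was lost without Control 1, 2 or 6, which extended the domain from 16657 to 19909 bp. The domains spanned 1842 bp at Gsx2 to 16657 bp at Nkx2-2, with a median of 6971 bp. These lengths depend on where MspI fragments lie, since 28.9% of the CpGs of the windows were measured. The maps of CpG levels around the 9 genes show these flat stretches, with the methylated CpGs mostly outside the windows.

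**Figure D1:**
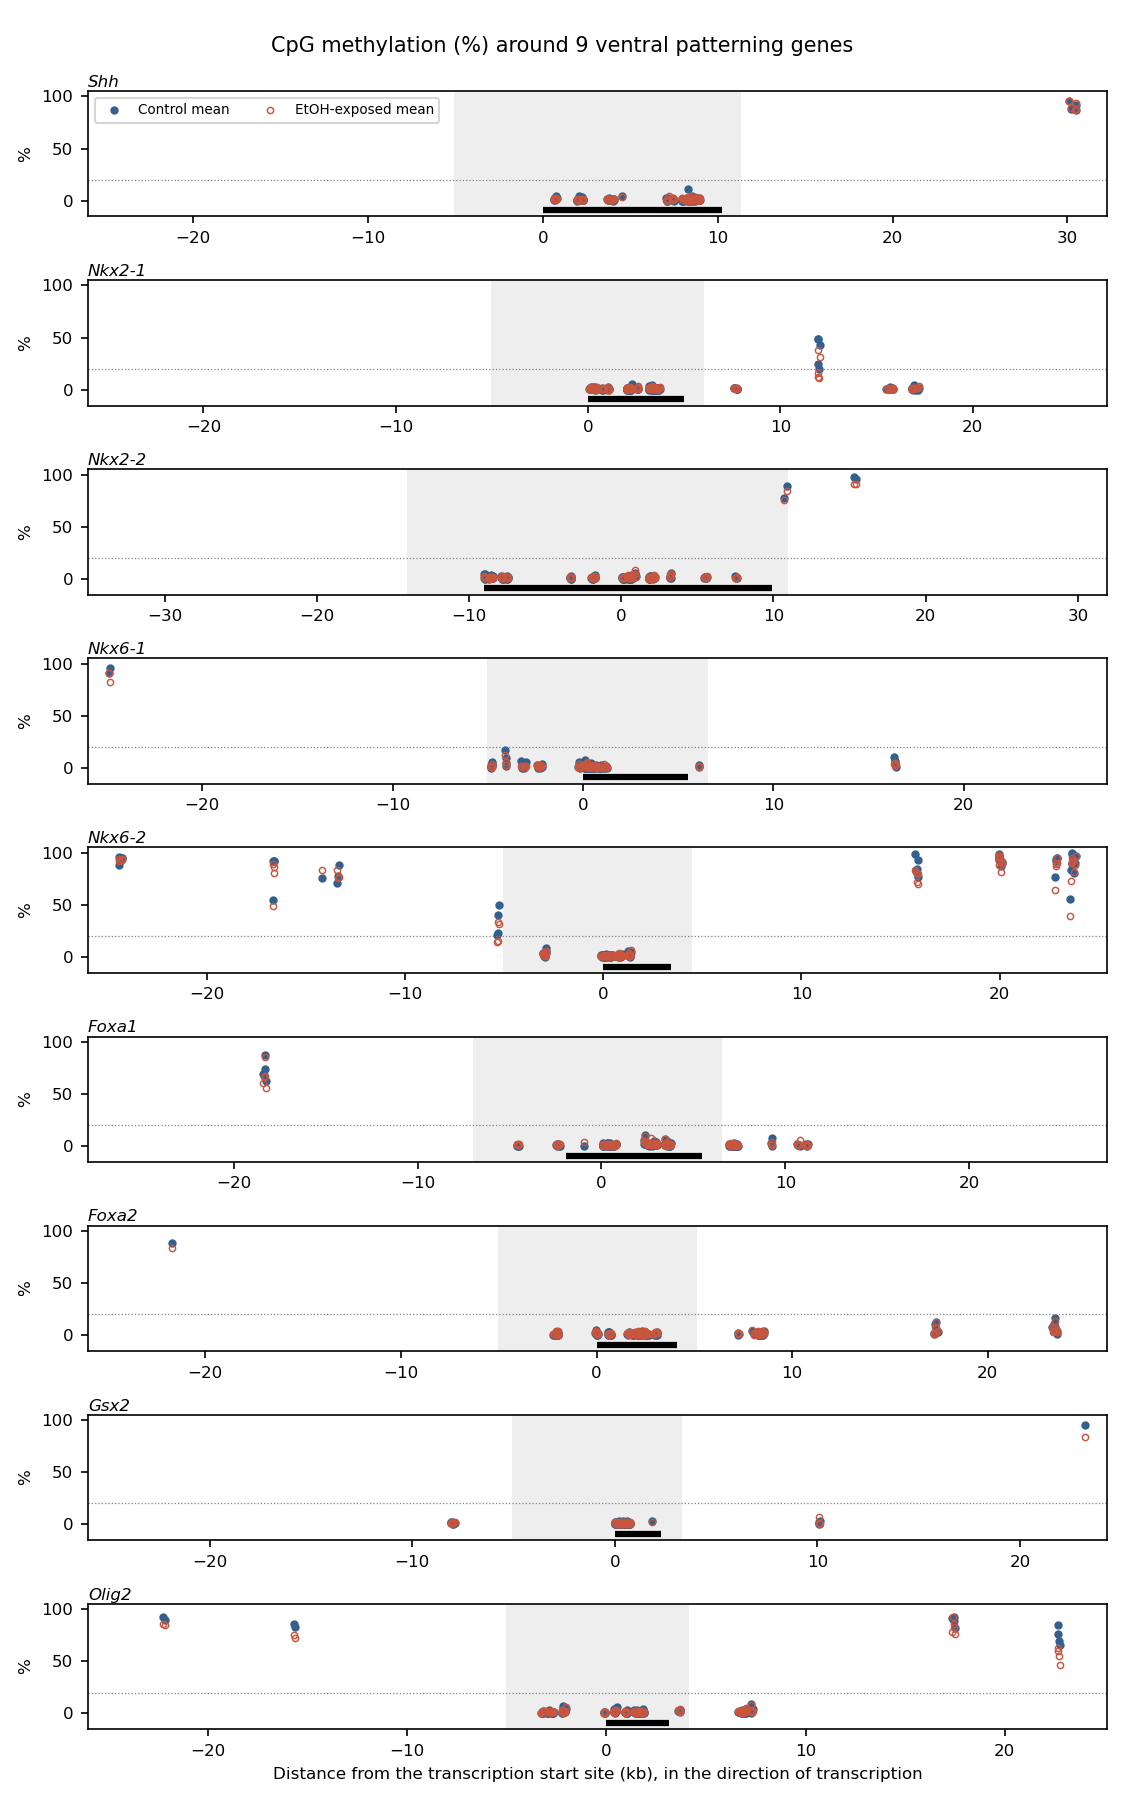
Mean methylation (%) of each CpG in Control (filled) and EtOH-exposed (open) samples against the distance from the transcription start site in kb, for CpGs that 3 or more Control samples covered with 10 reads per strand. Grey marks the window, the black bar the gene and the dotted line 20%. Inside the grey windows only the pair past the end of Nkx2-2 lies above the 20% line, and most methylated CpGs lie farther out.

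Shh, the ligand, lies on the minus strand at chr5:28456840-28467101. Its 145 measured CpGs lay between 627 and 8963 bp after the start site, 50 of them in coding exons and 95 in introns, and their mean Control level was 1.32%. The highest was an intronic CpG 8306 bp after the start, at 10.9% in 3 Control samples and 3.63% in 13 EtOH-exposed ones. No CpG upstream of Shh met the coverage rule, so its promoter is not described here. Past the gene, the next measured CpGs lay 30101 and 30221 bp from the start and were methylated at 95.95 and 87.7%.

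The forkhead genes were similar to each other inside their windows. Foxa1, at chr12:57540628-57548029 on the minus strand, had 128 measured CpGs from -4617 to 3753 bp around its start, with a mean of 1.43% and a highest level of 10.99% in an intron. Foxa2, at chr2:148042877-148046969 on the minus strand, had 118 CpGs with a mean of 1.20%, none of which reached 5%. Beyond its window Foxa2 remained low as far as the search went, with the last CpG at 23523 bp. A group of CpGs between 23284 and 23441 bp held 6.07 to 16.4%. Upstream of Foxa2 a single CpG at -21685 bp was methylated at 88.1%. Foxa1 stayed under 20% to 11206 bp on its 3′ side and was methylated from -18266 bp on its 5′ side.

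Among the homeodomain genes that respond to Shh, Nkx2-2 had the longest domain. Measured from the start of its curated transcript, CpGs from -9044 to 7612 bp lay under 20%, and they covered exons and introns of predicted transcripts upstream of the start. The border followed within 3.08 kb. The 2 CpGs past the gene, at 10694 and 10864 bp, were methylated at 77.2% ± 8.97 (SD, n = 3) and 89.0% ± 5.98 (SD, n = 4) in Control samples. They were the only 2 CpGs of the 1144 that reached 20%. In EtOH-exposed samples the same CpGs had 75.3% ± 6.53 (SD, n = 3) and 84.2% ± 16.5 (SD, n = 8), so the groups overlapped at both.

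Nkx6-1, at chr5:101659184-101664711 on the minus strand, had the most CpGs of slightly raised level. It had 7 of the 21 CpGs between 5 and 20%. They lay at -197 bp, from -3004 to -4791 bp and, for the only one after the start, at 90 bp. The highest of all the domains, at -4080 bp, had 17.2% in 5 Control samples and 12.1% in 16 EtOH-exposed samples. Nkx6-2, at chr7:139579376-139582797 on the minus strand, had the most CpGs covered in every one of the 22 samples, 72. Its mean Control level was 1.48% over 111 CpGs, the last of them 1379 bp after the start. Nkx2-1, at chr12:56531935-56536908 on the minus strand, had a mean of 1.12% over 134 CpGs, all of them within the gene.

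Olig2, a basic helix-loop-helix factor gene at chr16:91225550-91228677 on the plus strand, had 127 measured CpGs with a mean of 1.33%. Gsx2, at chr5:75075601-75077893 on the plus strand, had the fewest, 67, and the lowest mean of 0.952%. The density of CpGs in these bodies is shown by 100 bases of the Olig2 coding exon, chr16:91227003-91227102 on the plus strand of GRCm38 (RefSeq), chosen as the coding stretch of the gene with the most measured CpGs. Capitals mark measured CpGs.
Olig2 coding stretch: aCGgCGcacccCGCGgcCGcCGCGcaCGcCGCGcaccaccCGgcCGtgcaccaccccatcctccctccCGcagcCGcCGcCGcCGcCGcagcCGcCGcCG
All 21 CpGs of this stretch were measured, and their mean levels ran from 0.273 to 2.94% in Control samples and from 0.679 to 2.60% in EtOH-exposed samples.

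Beyond the windows, a search of 20 kb on either side found further borders. Those after Nkx2-1 and before Nkx6-2 were the least methylated and are shown as sequence, because these are the CpGs of intermediate level at which the search outward stopped. Both stretches are printed on the minus strand, the sense strand of the gene, from GRCm38 (RefSeq), with measured CpGs in capitals.
Nkx2-1 border, chr12:56524826-56524983: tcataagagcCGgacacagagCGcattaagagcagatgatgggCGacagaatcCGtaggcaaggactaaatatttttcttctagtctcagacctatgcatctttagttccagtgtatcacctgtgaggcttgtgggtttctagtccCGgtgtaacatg
Nkx6-2 upstream border, chr7:139588064-139588158: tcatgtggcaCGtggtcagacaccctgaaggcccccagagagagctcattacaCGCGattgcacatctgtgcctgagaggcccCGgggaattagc
The Nkx2-1 stretch lies in an intron of Sfta3-ps and the Nkx6-2 stretch in an intron of Gm33031, and neither overlaps an exon. In Control samples the 5 CpGs of the first had mean levels of 20.2 to 49.0%, and the 4 CpGs of the second 20.8 to 49.7%.

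The stretch after Nkx2-1 was an island of methylation rather than the end of the low levels. CpGs at 7584 to 7753 bp lay under 20%, the 5 CpGs at 11936 to 12072 bp did not, and CpGs further on, up to 17192 bp, lay under 20% again. The other borders were more fully methylated. Averaged over the CpGs within 200 bp of the border, Control levels were 91.8% ± 2.30 (SD, n = 5) after Shh, 93.7% ± 3.05 (SD, n = 3) before Nkx6-1, 84.1% ± 12.2 (SD, n = 4) before Olig2, 88.8% ± 2.08 (SD, n = 4) after Olig2 and 85.1% ± 1.59 (SD, n = 4) after Nkx6-2, where the CpGs lie in Inpp5a. Before Foxa1, inside Ttc6, the level was 72.0% ± 8.63 (SD, n = 5). The position of these borders was loosely fixed, since the gap between the last low and the first methylated CpG was 2.22 kb before Nkx6-2 and 21.1 kb after Shh. No border was found at Foxa2 or Gsx2, each of which had 1 lone methylated CpG.

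Compared with other genes, the windows were at the unmethylated end of the range. Of the 4977 genes with at least 67 measured CpGs, 820 (16.5%) had no border on either side within the window, against 8 of 9 here. Member windows are short, at 24.95 kb or less, and among the 1520 genes with windows no longer than that the share was 34.6%. The median extent of the domain was 1295 bp over all such genes that had one, and 85.4% or more of them had a shorter domain than Foxa2, Olig2, Shh, Foxa1, Nkx6-1 or Nkx2-2. The share was 82.1% for Nkx6-2, 79.1% for Nkx2-1 and 65.7% for Gsx2. The median level of CpGs in the gene body was 18.0% over all genes and 1.29% over the members. The member windows held 2.48 to 4.54 CpGs per 100 bases, against a median of 1.504. Over the 1520 genes with short windows the medians were closer to the members, at 1578 bp for the domain, 5.02% for the gene body and 2.37 CpGs per 100 bases. These counts are a description of genes picked for their function, with earlier results of these data known.

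**Figure D2:**
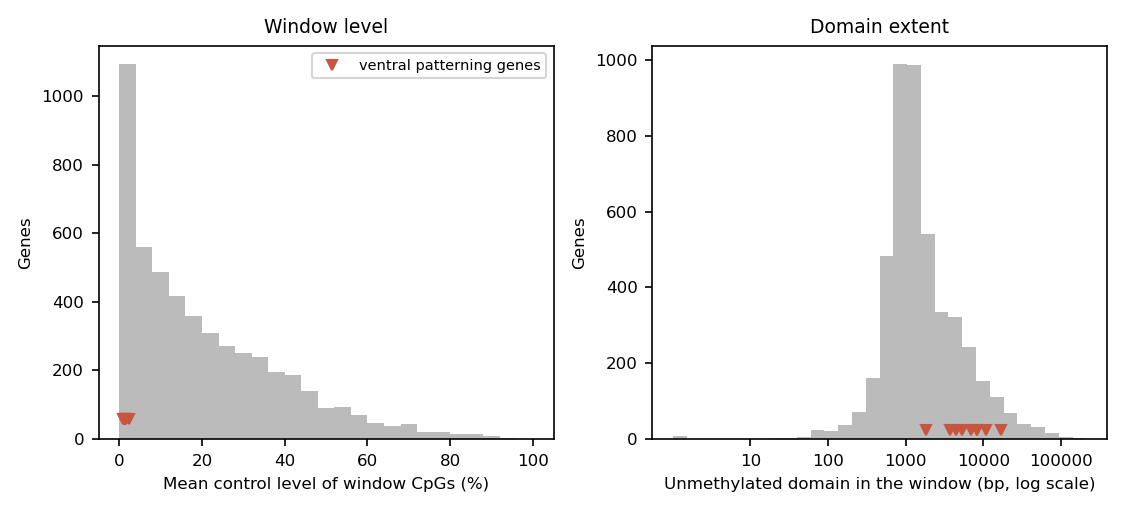
Histograms over genes with at least 67 measured CpGs, with triangles for the 9 ventral patterning genes, whose height carries no value. Left, mean Control level (%) of the CpGs of a window. Right, extent of the unmethylated domain in the window in bp on a log scale. The 9 genes lie at 0.952 to 2.23% on the left and at 1842 to 16657 bp on the right.

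The 2 lists of related genes differed in this respect. Of the 18 other neural tube progenitor factors, such as the Pax, Dbx and Msx genes, 13 had enough CpGs, 9 of them had no border in the window, and their median window level was 1.59%. Of the 15 genes of the Hedgehog pathway, which carry or modulate the Shh signal, 10 had enough CpGs, none lacked a border, and their median window level was 20.3%. The Hedgehog pathway windows were longer, with a median of 86.0 kb against 10.97 kb for the 9 genes.

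Ethanol exposure was compared with saline first over the unmethylated domain of each gene, using the CpGs covered in all 22 samples. The domain levels of the 9 genes were 0.952 to 1.75% in Control samples and 1.04 to 1.76% in EtOH-exposed samples, as group means. By limma on log2 ratios of methylated to unmethylated reads, 0 of the 9 genes passed an adjusted p of 0.05, and 0% of all 9171 genes did. At an unadjusted p under 0.05, limma gave 0 of the 9 and 114 of the 9171. The spread between libraries limited this test, which recovered 0% of 200 simulated 2-fold changes. The count of 0 therefore does not show that the levels were equal.

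Shh, with 38 CpGs, had a lowest, median and highest level of 0.322, 0.932 and 2.25% in the 6 Control samples. In the 16 EtOH-exposed samples these were 0.382, 1.01 and 2.70%. The groups overlapped over nearly their whole range (exact two-sided permutation p = 0.923 over 74613 splits). The log2 difference, EtOH-exposed minus Control, was -0.13 (SE 0.48).

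Foxa2 had the largest difference of means, but on only 4 CpGs and as few as 144 reads in a sample. Its lowest, median and highest Control levels were 0.301, 1.21 and 2.36%, against 0.465, 1.65 and 3.64% under ethanol. The Control mean was 1.21% ± 0.708 (SD, n = 6) and the EtOH-exposed mean 1.76% ± 0.963 (SD, n = 16; permutation p = 0.215). For its paralogue Foxa1, with 28 CpGs, the Control mean was 1.75% ± 0.400 (SD, n = 6) and the EtOH-exposed mean 1.76% ± 0.840 (SD, n = 16; permutation p = 0.989).

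Nkx6-1, with 33 CpGs, had the lowest log2 difference of the 9 genes, -0.46 (SE 0.52, adjusted p = 0.995 by limma). Its lowest, median and highest Control levels were 0.710, 0.842 and 1.60%, against 0.214, 0.985 and 2.53% under ethanol, and 6 EtOH-exposed samples lay below and 3 above all Control samples. Nkx6-2, with 72 CpGs and at least 2838 reads per sample, was the best measured, at 1.45% ± 0.549 (SD, n = 6) and 1.37% ± 0.692 (SD, n = 16; permutation p = 0.796). Nkx2-2 had 1.22% ± 0.735 (SD, n = 6) and 1.32% ± 0.941 (SD, n = 16) over 47 CpGs, with a permutation p of 0.817. Both Nkx6 genes and Nkx2-2 thus had group means closer than 1 SD.

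Nkx2-1 had 1.23% ± 0.370 (SD, n = 6) and 1.32% ± 0.819 (SD, n = 16) over 26 CpGs, with a permutation p of 0.811. Gsx2 had 1.20% ± 0.627 (SD, n = 6) and 1.26% ± 0.944 (SD, n = 16) over 16 CpGs, with a permutation p of 0.873. Olig2 had 0.952% ± 0.391 (SD, n = 6) and 1.19% ± 0.814 (SD, n = 16) over 15 CpGs, with a permutation p of 0.517. In all 3 genes the EtOH-exposed samples spread both below and above the Control samples.

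The same 3 embryos led at every gene. The libraries EtOH-exposed 4, 5 and 6 were the 3 highest at 9 of 9 genes, and this was also so at 49.5% of the other genes with a domain. The SD was larger in EtOH-exposed than in Control samples at 9 of 9 genes, against 80.9% of all genes. The EtOH-exposed mean was the higher one at 8 of 9 genes, and without these 3 libraries it was the lower one at 8 of 9, Foxa2 excepted. This and the sign counts that follow were not made over the other genes, so they do not set the 9 genes apart. With all samples, the median level over the domains of the other genes averaged 1.10% in Control and 1.16% in EtOH-exposed libraries. On the log2 scale with all samples, 7 of 9 differences were negative, so the sign depended on the measure. Without the 3 libraries all 9 log2 differences were negative, from -0.86 at Nkx6-1 to -0.12 at Foxa2, with limma adjusted p of 0.371 to 0.826. The 6 EtOH-exposed libraries of lowest level at unmethylated tiles remain in that comparison. A further set held the 6 Control and the 7 EtOH-exposed libraries between the lowest and the highest EtOH-exposed ones at those tiles. In it 8 of 9 differences were positive, from -0.003 at Nkx6-1 to 0.43 at Foxa2, with adjusted p of 0.997 or more. The conditions were not matched in level within this set. Control 3, 4, 5 and 6 lay below all 7 EtOH-exposed libraries at those tiles, and Control 1 and 2 lay above them. These signs therefore do not compare libraries of equal level.

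Expressed relative to the mean of each library over all domains, the log2 differences ran from -0.20 (SE 0.14) at Nkx6-1 to 0.41 (SE 0.22) at Foxa2. Olig2 had 0.27 (SE 0.13), with an unadjusted p of 0.0490 and an adjusted p of 0.862 by limma. Foxa2 had an unadjusted p of 0.0755 and the same adjusted p. For the other 7 genes the unadjusted p was 0.175 or more and the adjusted p was 0.888 to 0.987, and none passed. Of all 9171 genes, limma called 0 in this relative test.

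**Figure D3:**
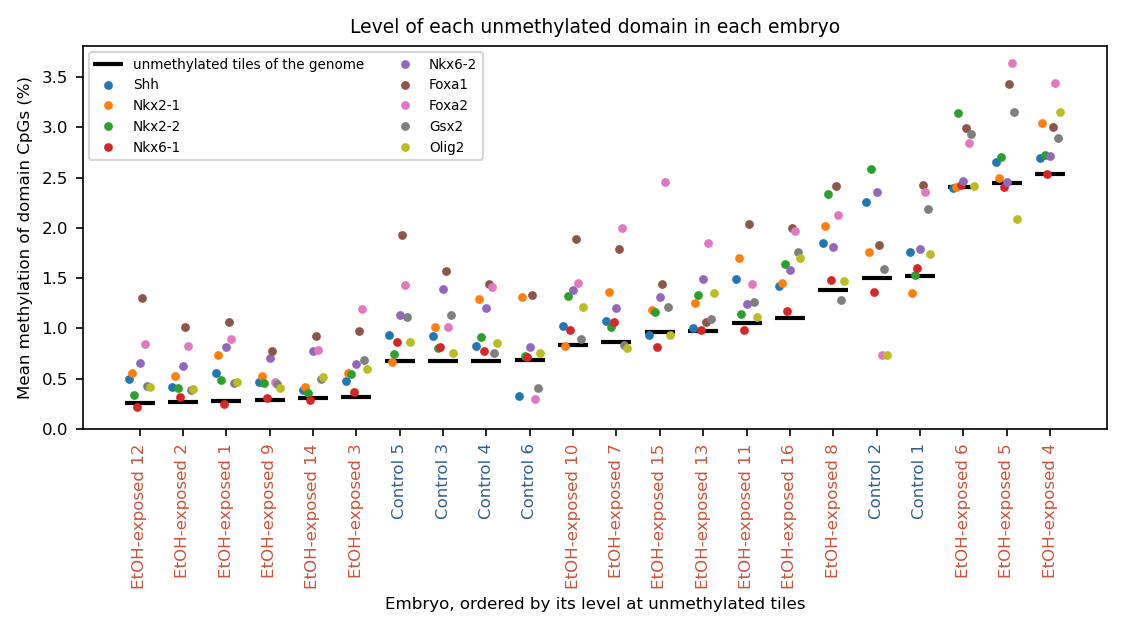
Mean methylation (%) of the domain CpGs of each gene (coloured points) in each of the 22 embryos, ordered by the level of the library at 39343 unmethylated tiles (black bars), with Control names in blue and EtOH-exposed names in red. The points follow the bars, from EtOH-exposed 12 at 0.260% to EtOH-exposed 4 at 2.54% at those tiles, and the conditions fall in blocks along this order. The 6 lowest and the 3 highest libraries are EtOH-exposed, and between them lie 4 Control, 7 EtOH-exposed and 2 Control libraries.

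At the level of 100 bp tiles, which needed at least 2 CpGs and 5 samples per condition, the 9 windows held 126 of 114430 tested tiles. A tile was called a DMR when a logistic test gave q under 0.01 and the group levels, weighted by coverage, lay 10 or more percentage points apart. None of the 126 tiles was a DMR, against 1.14% of all tiles, of which 1240 were lower and 59 higher in EtOH-exposed samples. The differences in the windows ran from -1.71 to 3.14 percentage points. A tile near 1% cannot fall by 10 points, and no tile of the windows was above 7.82% in Control samples, so in these windows a DMR could only have been a gain.

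By q alone, 25 of the 126 tiles (19.8%) passed 0.01, against 21.8% of all tiles and 23.8% of tiles under 5% in Control samples. Of these 25, 19 were higher and 6 lower in EtOH-exposed samples, against 9221 higher and 4794 lower among all tiles under 5%. This direction changed with the set of libraries. Without EtOH-exposed 4, 5 and 6, the highest at unmethylated tiles, 28 of 126 tiles passed, all lower, against 21.5% of all tiles. Of the tiles under 5% that passed, 127 were then higher and 17007 lower. Another set held the 6 Control and 7 EtOH-exposed libraries between the lowest and the highest EtOH-exposed ones at unmethylated tiles. In it 9 of 125 tiles passed, 6 higher and 3 lower, against 8.17% of all tiles. Of its tiles under 5% that passed, 2309 were higher and 852 lower. The conditions were not matched in level within this set. The logistic test counts reads and not embryos. With limma, which uses the spread between embryos, 0 of 126 tiles and 0% of all tiles passed an adjusted p of 0.05, and 4 of the 126 and 5093 of all had an unadjusted p under 0.05. With overdispersion estimated, none of the 114430 tiles passed q under 0.01.

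The largest difference in a window was at Foxa2, in a tile over the edge of a coding exon. Its bases, chr2:148044801-148044900 on the minus strand of GRCm38 (RefSeq), are shown with the 3 CpGs measured in at least 3 Control samples in capitals.
Foxa2 tile: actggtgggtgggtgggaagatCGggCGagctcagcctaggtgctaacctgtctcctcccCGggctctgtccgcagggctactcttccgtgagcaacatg
The level was 0% in 5 of the 6 Control samples and 0.752% in Control 1. These rested on only 62 to 139 reads per sample, 133 of them in Control 1. In the 12 EtOH-exposed samples with a value, the lowest, median and highest were 0, 1.39 and 5.22%, and 7 lay above all Control samples. The coverage-weighted levels were 0.163 and 3.30%, a difference of 3.14 percentage points (q = 1.14e-06, limma adjusted p = 0.994). EtOH-exposed 4, 5 and 6 had 4.92, 4.33 and 3.35%, above their own level at unmethylated tiles, and with 691 to 806 reads they held most of the reads of this group. EtOH-exposed 8 reached 5.22% on 115 reads and EtOH-exposed 13 had 4.55% on 22 reads. Without EtOH-exposed 4, 5 and 6, the lowest, median and highest of the other 9 were 0, 0.641 and 5.22%, the weighted difference was 1.16 points and the exact permutation p was 0.134, against 0.0324 with them.

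The tiles with the smallest p in the other windows differed by less than 1 percentage point. In Shh, 3751 bp after the start, the weighted levels were 0.877 and 1.75% (q = 4.68e-05, limma adjusted p = 0.994). In Foxa1, 761 bp after the start, they were 1.88 and 0.931%, and 10 of 16 EtOH-exposed samples lay below and 2 above all 5 Control samples (exact permutation p = 0.314). Nkx6-1 at -2239 bp had 1.01 and 1.83%, with 9 of 16 EtOH-exposed samples above all 5 Control samples (exact permutation p = 0.100). Another Nkx6-1 tile, at -4039 bp, had the opposite direction and the smallest permutation p of the windows, 0.00840 over 20349 splits, and was chosen after its values were seen. Its weighted levels were 7.82 and 6.11% (q = 0.00640, limma unadjusted p = 0.0333 and adjusted p = 0.994), and 12 of 16 EtOH-exposed samples lay below and 1 above all 5 Control samples. Without EtOH-exposed 4, 5 and 6 these were 10 and 1 of 13, with a permutation p of 0.0153, but q rose to 0.0229 and no longer passed 0.01. Nkx2-2 at -7548 bp, Nkx2-1 at 3658 bp, Nkx6-2 at 247 bp, Gsx2 at 549 bp and Olig2 at 1000 bp differed by 0.913, 0.374, -0.766, 0.431 and 0.492 percentage points in that order. At each of these 5 tiles the ranges of the groups overlapped, and the exact permutation p was 0.235 or more. Among tiles with only 3 or 4 Control samples, a rule added after seeing the data, the largest difference was 4.41 points at Olig2, 500 bp after the start.

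Among tiles with 5 samples per condition, those with room to lose methylation lay outside the windows. In the 20 kb on either side, 42 tiles were tested, 8 of them at 20% or more in Control samples, and 1 of these was a DMR, against 2.46% of all tiles at that level. It lay after Olig2, between genes, at chr16:91248201-91248300 on the plus strand, 22700 bp from the start site and 14427 bp from the nearest other gene, Gm52261. Its sequence, from GRCm38 (RefSeq), is shown since it is the only DMR within 20 kb of these windows under the 5-sample rule, with its 2 measured CpGs in capitals.
Olig2 distal tile: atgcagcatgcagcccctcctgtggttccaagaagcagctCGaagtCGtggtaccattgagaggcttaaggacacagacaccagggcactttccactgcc
Control samples had a lowest, median and highest level of 65.2, 72.0 and 76.9% (n = 5). EtOH-exposed samples had 41.3, 55.0 and 81.4% (n = 15), and 10 lay below all Control samples and 1 above. The group means were 72.5% ± 4.83 (SD, n = 5) and 58.7% ± 12.8 (SD, n = 15), with an exact permutation p of 0.0317 over 15504 splits. The weighted difference was -17.8 percentage points (q = 2.45e-26 by the logistic test), while limma gave an unadjusted p of 0.0366 and an adjusted p of 0.994 over all tiles.

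The CpGs next to this tile had the same direction, but they lie so close that the same reads can cover both. They are therefore not independent of the tile. At 22645 bp the mean was 84.3% in 4 Control and 59.9% in 8 EtOH-exposed samples, and at 22773 bp it was 65.95% in 5 and 46.4% in 15. EtOH-exposed 4, 5 and 6 had 45.4, 49.0 and 52.6% at the Olig2 tile. Without them the means differed by -11.4 points, 7 of 12 EtOH-exposed samples lay below all Control samples, the permutation p was 0.0824 and the weighted difference was -16.04 points (q = 9.32e-20). Closer to the gene, after the border at 17330 bp, 2 tiles that 4 Control and 9 EtOH-exposed samples covered had weighted differences of -1.52 and -5.60 points.

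The Nkx2-1 border tile, 11958 bp after the start, had too few samples for the 5-sample rule and was tested with at least 3 per condition, a rule added after its values had been seen. In 4 Control samples the levels were 36.8, 40.0, 23.7 and 32.2%, and in 6 EtOH-exposed samples 18.1, 15.5, 17.1, 20.9, 19.8 and 28.1%. EtOH-exposed 16, at 28.1%, lay above Control 5, which had 38 reads, and the other 5 lay below all Control samples. The Control mean was 33.2% ± 7.11 (SD, n = 4) and the EtOH-exposed mean 19.9% ± 4.46 (SD, n = 6), with an exact permutation p of 0.00952 over 210 splits. The weighted difference was -17.8 percentage points (q = 2.50e-43), and limma gave an unadjusted p of 0.0189 and an adjusted p of 0.991.

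With this rule, 11 further tiles at 20% or more were tested beyond the windows and 1 was a DMR. In the windows 56 further tiles were tested and none was. Of these 56, 1 was at 20% or more, past the end of Nkx2-2. Its weighted levels were 89.3% in 4 Control and 86.3% in 8 EtOH-exposed samples. Over the genome, 4.82% of the further tiles and 7.28% of those at 20% or more were DMRs. Over all tiles of this rule the shares were 2.57% and 4.76%. At the Nkx2-1 tile, EtOH-exposed 4, 5 and 6 supplied 3 of the 6 EtOH-exposed values, on 1744, 1464 and 1411 reads. EtOH-exposed 10, 11 and 16 had 230, 499 and 462 reads there, so the weighted EtOH-exposed level rested mostly on the first 3. At tiles of intermediate methylation EtOH-exposed 4, 5 and 6 had 45.4 to 46.7%, and EtOH-exposed 10, 11 and 16 had 60.6, 56.0 and 58.3%. The part of these library levels in the difference was not tested. The latter 3 alone had a mean of 22.9% ± 4.52 (SD, n = 3), the weighted difference was -12.8 points (q = 4.48e-11) and the exact permutation p was 0.114 over 35 splits.

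At the upstream border of Nkx6-2, the 4 CpGs had means of 33.4% ± 13.1 (SD, n = 4) in Control and 23.9% ± 11.6 (SD, n = 9) in EtOH-exposed samples. The Control samples themselves ran from 15.1 to 43.6% and the EtOH-exposed ones from 11.7 to 47.6%, so the groups overlapped over most of their range. EtOH-exposed 4, 5 and 6 had 18.3, 11.7 and 17.1% there. Without them the EtOH-exposed mean was 27.9% ± 12.3 (SD, n = 6), and the difference of the means went from -9.50 to -5.42 points (exact permutation p = 0.505). The tile there had a weighted difference of -9.43 points, under the limit of 10 (permutation p = 0.329). The 5 tiles at 20% or more around Nkx6-2 that met the 5-sample rule differed by -0.993 to -2.99 points. At the Foxa1 border the tile had 73.7% ± 6.95 (SD, n = 5) and 69.7% ± 9.43 (SD, n = 14), with a weighted difference of -4.07 points. Over the border CpGs, leaving out these 3 libraries moved the difference of the means from -5.004 to -2.55 points before Foxa1, from -5.85 to -0.961 after Olig2, from -8.27 to 0.286 after Nkx6-2 and from -2.71 to 7.30 at Nkx2-2. It moved from -5.40 to -4.32 before Nkx6-1, from 0.0165 to 0.544 after Shh and from -14.3 to -10.7 after Nkx2-1. Before Olig2, where these libraries had no value, it was -10.4. These means do not rest on the same CpGs in every embryo. At Nkx2-2 the CpG at 10694 bp had a value in 3 of 8 EtOH-exposed samples. After Nkx6-2 the CpG at 15730 bp, at 99.1% in 3 Control samples, had a value in 1 EtOH-exposed sample. The part of this in the differences was not tested. Without EtOH-exposed 4, 5 and 6, none of these 8 borders had an exact permutation p under 0.119, apart from Nkx2-1 at 0.0571. Over the 5 CpGs there, all 6 EtOH-exposed samples lay below all 4 Control samples, at most 31.1% against at least 31.6%. The 3 left without those libraries also did, and their 35 splits cannot give a very small p.

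**Figure D4:**
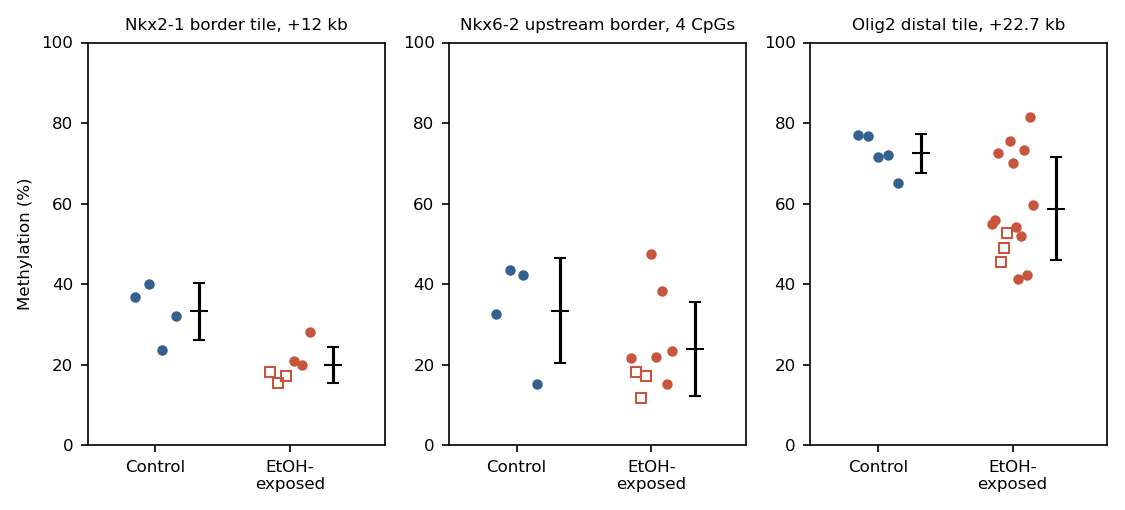
Methylation (%) per embryo at the Nkx2-1 border tile, over the 4 CpGs of the upstream Nkx6-2 border and at the distal Olig2 tile, for Control and EtOH-exposed samples, with the mean and SD beside each group in black. Open squares are the libraries EtOH-exposed 4, 5 and 6. At the Olig2 tile 10 of 15 EtOH-exposed embryos lie below the lowest Control at 65.2%, and at the Nkx6-2 border the groups overlap.

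Over the CpGs past a border, out to 20 kb beyond the window, 3 of the 9 genes had CpGs covered in every sample, and they were few. At Nkx2-1 these were 12 CpGs beyond the methylated island with a Control level of 1.02%, so the value there is not one of a methylated flank. Olig2 had 1 such CpG, at 91.9%, and Nkx6-2 had 3, at 93.3%. The log2 differences were -0.27 (SE 0.45) at Nkx2-1, -0.54 (SE 0.50) at Olig2 and -0.41 (SE 0.27) at Nkx6-2, and limma gave adjusted p of 0.735, 0.526 and 0.354. Without EtOH-exposed 4, 5 and 6 they were -0.67 (SE 0.34), -0.13 (SE 0.36) and -0.25 (SE 0.20), with adjusted p of 0.247, 0.843 and 0.446. Of 10805 genes tested in this way, limma called 0, and 2666 had an unadjusted p under 0.05. Within the windows proper, no gene had a CpG outside its domain that was covered in all 22 samples, so that comparison could not be made.

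In the windows of the 15 Hedgehog pathway genes, 4 of 170 tiles (2.35%) were DMRs, against 1.14% of all tiles, with 3 lower and 1 higher in EtOH-exposed samples. All 4 were among the 64 tiles of these windows at 20% or more in Control samples, a level at which 2.46% of all tiles were DMRs. They lay at Ptch1, the receptor of Shh, with 40.5% ± 6.05 (SD, n = 5) and 26.4% ± 14.7 (SD, n = 16), at Scube2, which aids the release of Shh, with 79.8% ± 6.30 (SD, n = 5) and 66.6% ± 12.5 (SD, n = 16), and at Gli1, a transcriptional effector. At Gli1 the weighted levels were 32.7 and 44.1%, while the means over embryos were 40.8% ± 16.1 (SD, n = 5) and 43.9% ± 10.8 (SD, n = 16). Among the 18 other progenitor factors, 1 of 213 tiles (0.469%) was a DMR, at Pax7, a dorsal factor, with 26.8% ± 3.72 (SD, n = 5) and 17.0% ± 8.74 (SD, n = 16). The windows of these factors had 5 tiles at 20% or more, and limma called no tile of either list at an adjusted p of 0.05. Without EtOH-exposed 4, 5 and 6, 1 of the 5 DMRs of both lists remained, at Gli1, and the share of all tiles called fell to 0.39%. The weighted differences were then -7.12 points at Ptch1, -9.54 at Scube2 and -6.84 at Pax7, all under the limit of 10.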

How the data were processed

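The rRRBS libraries of 6 Control and 16 EtOH-exposed forebrains were used, 1 library per embryo. According to the study's methods and the submitters' processing notes, the authors trimmed reads with Trim Galore 0.3.3 and aligned them to mm10, which is GRCm38, with BSMAP 2.90. The deposited counts are reads that cover each cytosine of a CpG, not normalized, and the deposited percent values give how much of that coverage was methylated, rounded to 1 decimal by the authors. Coverage in the files stops at 65535 reads. All 2908952 CpGs lay at a CpG of the reference.

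Coverage times percent, rounded, gave the methylated reads. Strands with at least 10 reads were kept and added. Tiles of 100 bp on chromosomes 1 to 19 needed 2 CpGs and 5 samples per condition, and were tested by a likelihood ratio in a logistic model with Benjamini-Hochberg adjustment. Gene levels were log2 ratios with 0.5 added to each read sum, tested with limma 3.58.1 in R 4.3.3 over all genes. Permutation tests were exact and two-sided, and each embryo counted as independent, since the labels give no litters, although some embryos were littermates. Start sites were the most upstream curated transcripts. Other steps used Python 3.11.15 with numpy 2.4.6 and scipy 1.17.1. Tests were checked on simulated reads without spread between embryos, beyond a level per library for domains. In these, limma on domain levels recovered 0% of 2-fold, 89.5% of 4-fold and 100% of 8-fold changes. Relative to the library it recovered 82% of 200 2-fold changes and also called 18 unchanged genes. The simulation does not show how the tests behave with the spread of these embryos.

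The genes and lists were chosen with earlier results of these data known. For each gene, the most changed DMR was named or, with no DMR, the window tile of lowest p, with its border CpGs and, from the other lists, up to 4 genes with DMRs. The alternatives were other read minimums, thresholds, weightings, tests and sets of samples. Intervals and reads cover counting error only, since PCR copies cannot be told apart. With 144 reads, the fewest over a domain, the 95% Wilson interval of 2.08% ran from 0.711 to 5.95%. Embryos within a condition differed by more than the sampling noise, so none was counted as a copy.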

Additional observations from a re-analysis of the deposited data

Results flagged for a closer look

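In 28 groups of 4 to 10 samples, 4 had a lowest or highest value far from the rest, and chance alone gives about 1 in 20. At the Olig2 domain, Control 1 had 1.74%, and the next Control sample had 0.868%. At the Foxa2 tile, Control 1 had 0.752% and the other 5 Control samples had 0%, on 62 to 139 reads each. Control 1 was also the highest Control library at unmethylated tiles, at 1.52%. At the border after Shh, Control 3 had 95.7% and the next Control sample 91.3%. At the border before Olig2, EtOH-exposed 2 had 34.6% and the next of the 6 EtOH-exposed samples had 70.0%. The causes were not tested.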

How the results depend on the processing

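The count of DMRs in the 9 windows was 0 under all 36 alternatives, and none of the 9 genes was called on its domain under any of 34. Of these genes, none of the 1 to 5 that could be tested past a border was called there. In the main setting a window DMR could only have been a gain, and the domain test recovered 0% of simulated 2-fold changes. These counts therefore do not show that the levels were equal. Beyond the windows the count of 1 became 0 with overdispersion estimated, with limma, with 20 reads per strand and with all 22 samples required, and 2 with 5 reads per strand or with at least 3 samples per condition, with or without EtOH-exposed 4, 5 and 6. Leaving out 1 sample gave 0 to 1, and it was 0 without Control 1, 3, 4, 5 or 6, since 4 Control samples with the Olig2 tile do not meet the 5-sample rule. The difference at that tile ran from -20.1 to -13.8 points, and it stayed at -17.8 points but failed with overdispersion (q = 0.830) and limma (adjusted p = 0.994). The median domain extent was 5329 bp with 20 reads per strand, where fewer CpGs are measured, 6081 to 6965 bp without 1 Control sample and 6971 or 7716 bp otherwise. Without Control 1, 2 or 6, 1 of the 2 border CpGs of Nkx2-2 had too few Control samples, so that 9 of 9 genes had no border in the window and its domain reached 19909 bp. Otherwise 8 of 9 had none. Of 306 log2 differences of the domains under alternatives, 47 had the other sign. The replicate numbers share no source in the labels, and the deviations of same-numbered samples correlated at -0.21 to 0.05. With the replicate block the counts were 0 in the windows and 1 beyond them, with the Olig2 tile at -20.1 points, as in the same 12 samples without the block. With outer flank CpGs covered by 5 samples per condition instead of all 22, limma called 1839 of 15337 genes but none of the 5 members tested, with Olig2 at -1.06 on the log2 scale (adjusted p = 0.145). Alternatives for CpGs outside the domain but inside the window gave no value, since no gene could be tested. Depth and the MspI sites limit the maps to 28.9% of the CpGs.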
